A study of Drosophila melanogaster with 7 samples.

Results

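The Hsp70 genes of Drosophila melanogaster and their relative Hsp68 were examined in RNA of the larval fat body, the tissue that stores nutrients and secretes proteins into the hemolymph. The 7 genes were taken by name from the 14804 genes of the deposited tables, and all 7 were found there. They are Hsp70Aa and Hsp70Ab at one locus of chromosome arm 3R, here called Hsp70A, Hsp70Ba, Hsp70Bbb, Hsp70Bb and Hsp70Bc at a second locus of that arm, here called Hsp70B, and Hsp68. Control larvae came from BxMS1096-GAL4 (Bx-GAL4) crossed to w1118, and RasV12 larvae from the same driver crossed to UAS-RasV12, a dominant-active form of Ras. All larvae therefore carried the driver, which is active in wing discs and salivary glands and was not chosen as a fat body driver. Each of 3 control and 3 RasV12 libraries was made from fat bodies of 40 wandering larvae, dissected without gonads.

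Hsp70 proteins bind unfolded polypeptides and release them in a cycle driven by ATP. In the fly the Hsp70 copies are nearly silent in unstressed cells and are switched on within minutes of heat or other proteotoxic stress, when the transcription factor Hsf binds heat shock elements upstream of genes that already hold a paused RNA polymerase. Hsp68 is a related stress-inducible gene, whereas the Hsc70 cognates are expressed without stress. Cochaperones of the DnaJ family deliver substrates to Hsp70 and stimulate its ATPase, and nucleotide exchange factors such as the BAG-domain protein Starvin (stv) reset the cycle.

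The tables gave FPKM, fragments scaled by transcript length and by the mapped total of the library, which is comparable between genes of different length. The confidence bounds implied totals of 6271265, 7328089 and 2910838 fragments on genes for the 3 controls in order of replicate, and of 4649422, 7137448 and 7305940 for the 3 RasV12 libraries. Values below are FPKM scaled by each library's 75th percentile, with factors between 0.832 and 1.24. The 6 fat body markers, which encode larval serum proteins and fat body proteins, were high in every library, and their summed level lay between 64160 and 167500 scaled FPKM. In bulk RNA, fewer cells of a type and less RNA per cell cannot be told apart.

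The Hsp70 copies were low in 5 of the 6 libraries and high in control replicate 2. Each of the 6 copies and Hsp68 had its highest level in that 1 library. Over all 7575 genes tested 15.7% were highest there, a share against which the 4 Hsp70B copies cannot be read, since they passed the filter on low values only through this library. No member passed the test between RasV12 and control larvae. The fitted change was negative for 5 members and positive for 2, Hsp70Ba and Hsp70Bb. Without control replicate 2 it was positive for all 7. The values of the members are given first, by locus, and the comparison follows.

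The 2 copies of the Hsp70A locus are single-exon genes in the newer BDGP6 annotation and point away from each other. Hsp70Aa (3R:7779885-7782514, BDGP5) measured 1.02, 37.7 and 2.83 scaled FPKM in control replicates 1, 2 and 3, and 4.66, 1.61 and 6.25 in RasV12 replicates 1, 2 and 3. Hsp70Ab (3R:7784275-7786673) measured 1.18, 41.8 and 1.59 in the controls and 4.60, 1.57 and 5.45 in RasV12 larvae. For both genes the RasV12 values lay between the lowest and the highest control, so the groups overlapped. Control replicate 2 stood 6.03-fold above the next library, RasV12 replicate 3, for Hsp70Aa and 7.67-fold above it for Hsp70Ab.

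The 4 copies of the Hsp70B locus are also single-exon genes. Hsp70Ba (3R:8291026-8293500) was at 0.0801, 4.09 and 0 scaled FPKM in control replicates 1, 2 and 3, and at 1.29, 0.591 and 0.553 in RasV12 replicates 1, 2 and 3. Hsp70Bbb (3R:8328232-8330822) was at 0.238, 5.22 and 0.113 in the controls and at 1.36, 0.186 and 0.611 in RasV12 larvae. Hsp70Bb (3R:8331515-8334105) was at 0.276, 6.33 and 0.113 in the controls and at 2.19, 0.910 and 0.862 in RasV12 larvae. Hsp70Bc (3R:8334798-8337008) was at 0.0909, 5.62 and 0.559 in the controls and at 1.53, 0.0963 and 0.578 in RasV12 larvae. For all 4 copies the order of libraries was alike at the top, with control replicate 2 first and RasV12 replicate 1 second. Control replicate 2 was 2.89-fold to 3.83-fold above the next library at these 4 copies.

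Hsp68 (3R:19880802-19883029), which encodes the related inducible chaperone, stood at a higher level than any Hsp70 copy in every library. It measured 34.1, 82.8 and 25.3 scaled FPKM in control replicates 1, 2 and 3, and 30.5, 35.4 and 42.2 in RasV12 replicates 1, 2 and 3. Its 3 RasV12 values lay within the range of the controls, and control replicate 2 was 1.96-fold above the next library. The ratio of Hsp68 to the mean of the Hsp70A copies came to 31.0, 2.08 and 11.5 in the controls, in order of replicate, and to 6.58, 22.3 and 7.21 in RasV12 larvae. The ratio was lowest in control replicate 2, where the Hsp70A copies stood out more in proportion than Hsp68.

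**Figure D1:**
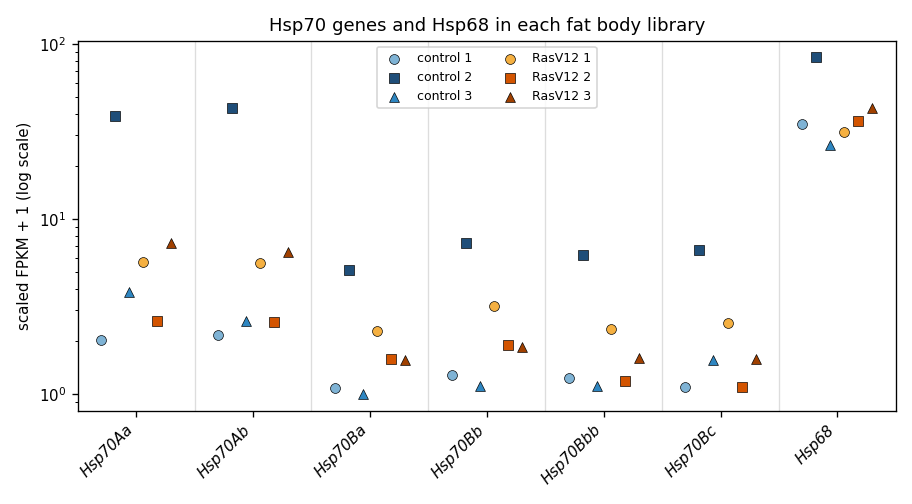
Scaled FPKM + 1 (log axis) of the 6 Hsp70 copies and Hsp68 in each library, with blue symbols for the 3 controls, orange and brown symbols for the 3 RasV12 libraries, and 1 symbol for each library. Control replicate 2 is the highest point of all 7 genes, at 41.8 scaled FPKM for Hsp70Ab and 82.8 for Hsp68, and in the other 5 libraries every Hsp70 copy lies at 6.25 scaled FPKM or below.

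The level of a copy rested on few fragments outside control replicate 2. The 6 copies together held 37.0, 1748 and 26.9 fragments in the controls, in order of replicate, and 175, 101 and 253 in RasV12 larvae. By their bounds the 4 Hsp70B copies rested on 2.58 fragments or fewer each in control replicates 1 and 3, under a floor of 3 fragments. In RasV12 replicate 2 Hsp70Bc rested on 1.05. At Hsp70Aa 3 fragments were worth 0.203 and 0.163 scaled FPKM in control replicates 1 and 2, but at Hsp70Bbb 0.424 and 0.168. The bounds may thus understate the fragments of the Hsp70B copies, and some in control replicate 1 may lie above the floor. A level of 0 for Hsp70Ba in control replicate 3 allows up to 0.907 scaled FPKM at that floor. This value was carried over from the rate of Hsp70Ba in control replicate 1 and may be too high. These limits cover counting error only.

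The split of fragments among the copies is uncertain, since the copies are near-identical and the counting can divide a fragment between them. Of the 29 values of single copies that rested on between 1 and 500 fragments, 5 came out within 0.05 of a whole number, against 78.9% of the 45649 gene values in that range. Hsp68 gave whole numbers in 5 of 6 libraries, such as 444.0 fragments in control replicate 1 and 312.0 in RasV12 replicate 1. Sums over a locus were mostly not whole either, such as 31.4 and 5.6 fragments in control replicate 1, so the shares of the loci are uncertain too. The Hsp70A copies held 84.7%, 79.4% and 91.0% of the fragments of the 6 copies in control replicates 1, 2 and 3, and 60.5%, 65.9% and 82.5% in RasV12 replicates 1, 2 and 3. These shares overlapped between the groups, and those of control replicates 1 and 3 rested on 5.6 and 2.4 fragments at the Hsp70B locus.

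**Figure D2:**
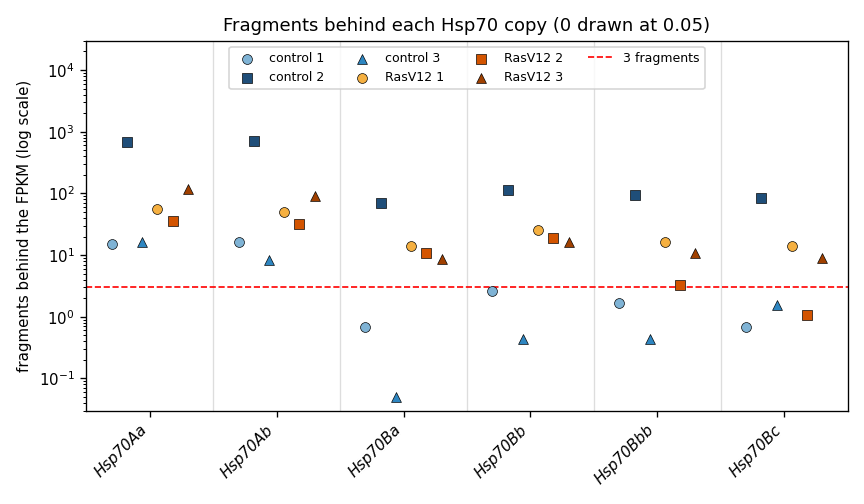
Fragments behind the FPKM of each Hsp70 copy in each library, as implied by the bounds (log axis, a value of 0 drawn at 0.05). Symbols are as for the levels, with a dashed line at 3 fragments. The 4 Hsp70B copies lie below the line in control replicates 1 and 3, whereas in control replicate 2 every copy rests on 69.8 to 695 fragments.

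For the Hsp70A copies and Hsp68 the spread was wider among the controls than among the RasV12 libraries, which was not so over all genes. On the log2(scaled FPKM + 1) scale the SD over the 3 controls was 2.41 for Hsp70Ab and 2.24 for Hsp70Aa, against a median SD of 0.22 over all genes tested. Only 58 of 7575 genes had a larger control SD than Hsp70Ab. At the Hsp70B locus the control SD ran from 1.32 for Hsp70Ba to 1.52 for Hsp70Bb, and that of Hsp68 was 0.87. The Hsp70B copies were tested only through control replicate 2, so their wide control SD is not read against all genes. Over the 3 RasV12 libraries the SD was 0.72 for Hsp70Ab, 0.77 for Hsp70Aa and 0.23 for Hsp68, against a median of 0.24 over all genes. The level of Hsp70Ab exceeded that of 77.3% of the genes tested in control replicate 2, and that of 4.86% to 30.4% of them in the other 5 libraries.

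The comparison of RasV12 with control larvae asked whether overgrowth in other tissues changes the fat body transcriptome. It was made with limma on log2(scaled FPKM + 1) over 7575 genes whose FPKM averaged 1 or more, and p-values were adjusted by the Benjamini-Hochberg method. None of the 7 members had an adjusted p under 0.05, nor an unadjusted p under 0.05 in either direction. Over all genes 0.106% passed the adjusted threshold, 4.11% were lower and 5.29% were higher in RasV12 larvae at an unadjusted p under 0.05. No member had all RasV12 values below all control values, which 7.08% of genes had, or above them, which 7.67% had. The 4 Hsp70B copies were among the genes tested only through control replicate 2, since over the other 5 libraries their mean was 0.511 to 0.913 FPKM.

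Hsp70Ab averaged 14.9 ± 23.3 scaled FPKM in controls and 3.87 ± 2.04 in RasV12 larvae (SD, n = 3 each). Its fitted log2 fold change, RasV12 minus control, was -0.46 with an SE of 1.14 and a limma adjusted p of 0.904. The 95% interval of that change ran from -3.18 to 2.26 on the log2 scale, so large changes in either direction were within the error. Hsp70Aa averaged 13.9 ± 20.7 in controls and 4.17 ± 2.36 in RasV12 larvae (SD, n = 3 each), with a log2 fold change of -0.49, an SE of 1.07 and a limma adjusted p of 0.892. The SD of the controls exceeded their mean for each of the 6 copies.

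At the Hsp70B locus the log2 fold changes were 0.02 for Hsp70Ba, 0.04 for Hsp70Bb, -0.31 for Hsp70Bbb and -0.45 for Hsp70Bc, with SEs of 0.70 to 0.76 and limma adjusted p-values of 0.853 to 0.998. Hsp68 averaged 47.4 ± 31.0 in controls and 36.0 ± 5.88 in RasV12 larvae (SD, n = 3 each). Its log2 fold change was -0.22 with an SE of 0.42, a 95% interval from -1.22 to 0.79 and a limma adjusted p of 0.878, and without scaling the sign of this small change turned. The median over the 6 copies was -0.38, beside 0.0012 over all genes tested. This median stayed below 0 with each scaling.

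Control replicate 2 set the sign of the median over the copies and of 5 of the 7 members. Hsp70Ba and Hsp70Bb were near 0 and positive with that library too. When the fit was repeated without it, all 7 members had a positive log2 fold change, and the median over the 6 copies was 0.78. That of Hsp70Ab was 0.93 with an SE of 0.45, an unadjusted p of 0.0907 and a limma adjusted p of 0.876, and the 95% interval ran from -0.21 to 2.07. That of Hsp68 was 0.27 with an SE of 0.22. No member passed an unadjusted p of 0.05, where 3.31% of genes were higher. Hsp70Ba and Hsp70Bb had all 3 RasV12 values above both remaining controls, and over all genes 10.4% did. Nothing is read from that order, since both copies were tested only through the library left out. The floor of Hsp70Ba in control replicate 3 (0.907 scaled FPKM, itself uncertain) also lies above its values in RasV12 replicates 2 and 3. By their bounds both controls left were at or under 3 fragments for the Hsp70B copies. With such values set to 3 fragments, a choice made after seeing the data, the median was 0.36 without control replicate 2 and -0.48 with it.

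**Figure D3:**
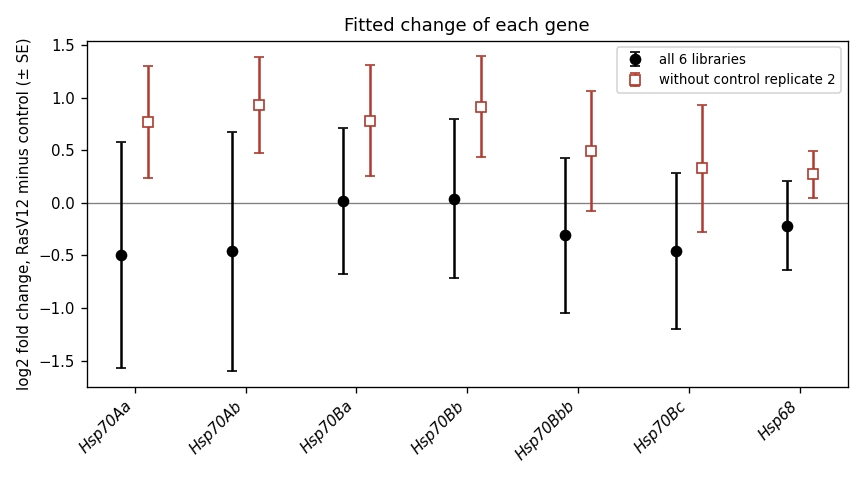
Fitted log2 fold change (RasV12 minus control) of each gene with its SE, from limma over all 6 libraries (filled circles) and without control replicate 2 (open squares). All 7 estimates move upward when that library is left out, from -0.46 to 0.93 for Hsp70Ab, and no estimate passes a p of 0.05 in either fit.

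Genes next to the Hsp70 copies did not stand out in control replicate 2 as the copies did. CG31211, which ends 5 bases before Hsp70Aa in the annotation, measured 15.7, 16.0 and 11.9 scaled FPKM in control replicates 1, 2 and 3, and 11.7, 10.0 and 12.5 in RasV12 replicates 1, 2 and 3. CG3281, whose annotated span overlaps the end of Hsp70Ab, measured 4.07, 3.43 and 4.22 in the controls and 3.37, 3.43 and 3.52 in RasV12 larvae. CG5608, which ends 6 bases before Hsp70Ba, measured 8.53, 6.99 and 4.55 in the controls and 7.07, 6.61 and 6.26 in RasV12 larvae. Control replicate 2 was the highest library at CG31211, by a small margin over control replicate 1, and not at CG3281 or CG5608. CG12267 was also highest there, at 4.70 against 3.41 to 3.94 in the other libraries. CG12213 and CG12267 had log2 fold changes of 0.02 and -0.17 with limma adjusted p-values of 0.974 and 0.724. CG14731, aur, Octbeta3R and hug lay at 1.68 scaled FPKM or less in every library. The alphagamma-element between the Hsp70B copies lay between 0.116 and 0.463.

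Around Hsp68 the neighbours Atg6, CG5991, SMC1 and 4EHP had log2 fold changes between -0.06 and 0.16 and limma adjusted p-values of 0.852 to 0.994. In control replicate 2 they measured 11.2, 59.8, 10.2 and 12.3 scaled FPKM, each within or close to the range of the other libraries. The short gene CG6000 overlaps Hsp68 in the annotation. It was listed at 0 in control replicates 1 and 2 and in RasV12 replicate 2, and at 14.1 to 26.1 in the other 3 libraries. How fragments were divided between CG6000 and Hsp68 was not tested, so this pattern is not read as expression switched on or off.

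**Figure D4:**
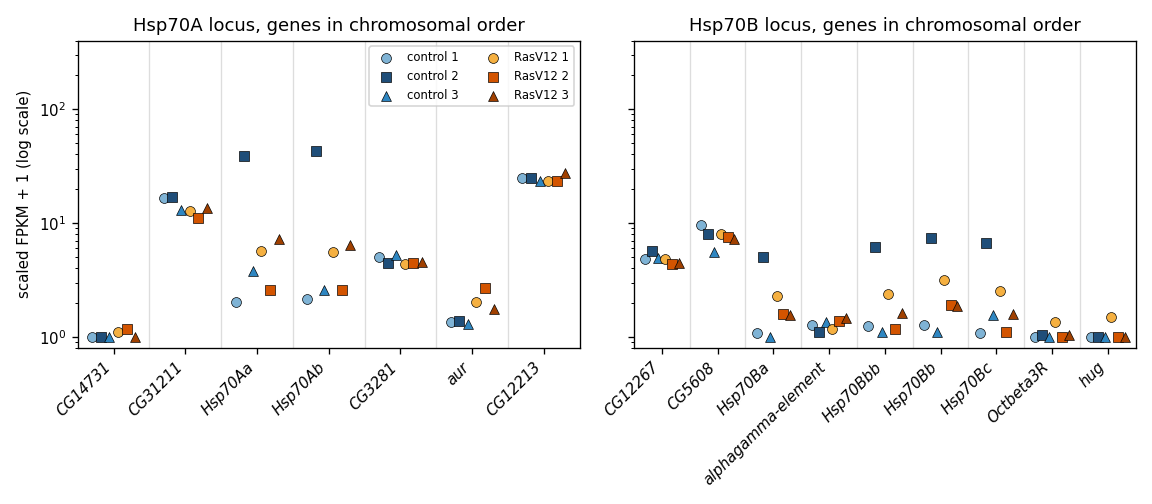
Scaled FPKM + 1 (log axis) of the genes at the Hsp70A locus (left) and the Hsp70B locus (right) in chromosomal order, in each of the 6 libraries, with symbols as for the levels. At the Hsp70 copies control replicate 2 stands above the other libraries, up to 41.8 scaled FPKM, whereas at CG3281 and CG5608 it lies among the others and at CG31211 (16.0) just above control replicate 1 (15.7).

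The main cytosolic cognate and the regulator of the response varied little between libraries. Hsc70-4, that cognate, measured 824, 754 and 769 scaled FPKM in control replicates 1, 2 and 3, and 828, 831 and 710 in RasV12 replicates 1, 2 and 3. Hsf, the transcription factor of the heat shock response, measured 16.2, 14 and 13.4 in the controls and 15.7, 14.6 and 13.7 in RasV12 larvae. Hsc70-3, the cognate of the endoplasmic reticulum, measured 549, 663 and 318 in the controls and 460, 415 and 299 in RasV12 larvae. Its log2 fold change of -0.34 had an SE of 0.32 and a limma adjusted p of 0.732. Of 8 genes of the cognate list 6 were tested, and none passed an unadjusted p of 0.05 in either direction. Their median log2 fold change was -0.20. Of these 6 genes 5 were highest in control replicate 2, beside 15.7% of all genes tested, although by smaller factors than the Hsp70 copies.

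Among the cochaperones, DnaJ-1 came closest to the pattern of the Hsp70 copies. This heat-inducible Hsp40 protein stimulates the Hsp70 ATPase. It measured 11.2, 73.9 and 10.8 scaled FPKM in control replicates 1, 2 and 3, and 13.9, 23.7 and 31.3 in RasV12 replicates 1, 2 and 3. Control replicate 2 was again the highest, and the RasV12 values all exceeded those of control replicates 1 and 3. Over all genes tested 10.4% had that order, and nothing is read from it. The log2 fold change was 0.05 with an SE of 0.74 in the full comparison and 0.93 without control replicate 2. stv measured 18.8, 32.4 and 13.1 in the controls and 6.54, 9.98 and 18.1 in RasV12 larvae, with a log2 fold change of -0.85, an SE of 0.43 and a limma adjusted p of 0.582.

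Of the 14 cochaperones tested, none was lower and 1 was higher at an unadjusted p under 0.05, beside 4.11% and 5.29% of all genes, and the median log2 fold change was -0.05. A count of 1 in 14 is near the share over all genes. The one that was higher was mrj, a DnaJ family member, at 9.49, 5.78 and 9.35 scaled FPKM in control replicates 1, 2 and 3 and 13.99, 15.03 and 10.19 in RasV12 replicates 1, 2 and 3. Its log2 fold change was 0.62 with an SE of 0.23, and its limma adjusted p was 0.531, so the change did not pass adjustment over all genes. Of the 14 genes 6 were highest in control replicate 2, beside 15.7% of all genes tested.

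The other heat shock genes did not move as a block. Hsp83, the fly Hsp90, measured 167, 340 and 130 scaled FPKM in control replicates 1, 2 and 3, and 167, 264 and 240 in RasV12 replicates 1, 2 and 3. Hsp22 and Hsp26, small heat shock proteins named here after their values were seen, were also highest in control replicate 2. Hsp22 measured 10.2, 43.8 and 11.1 in the controls and 7.38, 24.6 and 4.14 in RasV12 larvae. Hsp26 measured 13.1, 88.2 and 24.0 in the controls and 15.3, 51.9 and 9.04 in RasV12 larvae. Unlike the Hsp70 copies, both had RasV12 replicate 2 second.

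Hsp23 and Hsp27, also small heat shock proteins, ran otherwise and were likewise named after their values were seen. Hsp23 measured 1133, 461 and 1179 scaled FPKM in control replicates 1, 2 and 3, and 1572, 3163 and 336 in RasV12 replicates 1, 2 and 3. Hsp27 measured 209, 155 and 275 in the controls and 260, 371 and 73.0 in RasV12 larvae. Control replicate 2 was the lowest control for both genes, although it was the highest library for Hsp22 and Hsp26.

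Of 15 other heat shock genes 13 were tested, 1 was higher and none was lower at an unadjusted p under 0.05, again near the 5.29% and 4.11% of all genes. Their median log2 fold change was 0.05. The one that was higher was Hsp67Bb, listed at 0 in all 3 controls and at 2.74, 3.78 and 1.46 scaled FPKM in RasV12 replicates 1, 2 and 3. Its limma p was 0.00237 unadjusted and 0.257 adjusted. Hsp67Bb passed the filter on low values only through the RasV12 libraries, so nothing is read from that p-value. Its annotated span lies within that of Hsp22, so the division of fragments between these genes is uncertain. Of the 13 genes 4 were highest in control replicate 2, beside 15.7% of all genes tested.

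Markers of the larval cuticle were also highest in control replicate 2, in 6 of 6 genes of that list, beside 15.7% of all genes tested. Lcp3 was tested only through this library and Cpr65Au was not tested, so the count cannot be read against that share. Their summed scaled FPKM was 1.37, 302 and 9.39 in the controls, in order of replicate, and 34.0, 25.9 and 4.23 in RasV12 larvae. Lcp1, the most abundant of them over the 6 libraries, was at 1.03, 72.5 and 3.87 in the controls and at 20.98, 18.9 and 1.27 in RasV12 larvae. Lcp4 was at 0.339, 94.5 and 0.862 in the controls and at 10.6, 3.69 and 1.41 in RasV12 larvae. Lcp3 and Cpr65Au were listed at 0 in the 5 other libraries. Midgut markers were highest elsewhere, with summed levels of 352, 36.7 and 2.03 in control replicates 1, 2 and 3 and 1.87 to 1.99 in RasV12 larvae. Summed muscle markers were 24.5, 29.6 and 73.3 in the controls and 6.50, 30.3 and 29.9 in RasV12 larvae. Summed hemocyte markers were 10.6, 53.1 and 27.9 in the controls and 40.1, 82.5 and 99.7 in RasV12 larvae. The hemocyte genes disagreed, and PPO1 was not found. PPO2 alone was at 44.9 in control replicate 2 and at 68.2 in RasV12 replicate 3, whereas Hml and He were at 0 in all 3 controls. The log2 fold change was -0.72 for PPO2 and positive for the other 4 hemocyte genes. Summed testis markers were 3.33, 2.54 and 0 in the controls and 11.9, 112 and 19.5 in RasV12 larvae, although gonads were left out at dissection. No gene of the midgut, muscle, hemocyte and testis lists was highest in control replicate 2. Of the salivary glue markers 3 of 6 were highest there. Their summed levels were 23.65, 21.0 and 7.40 in the controls and 9.10, 7.36 and 11.7 in RasV12 larvae. The part of other tissues in the Hsp70 levels of control replicate 2 was not tested.

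**Figure D5:**
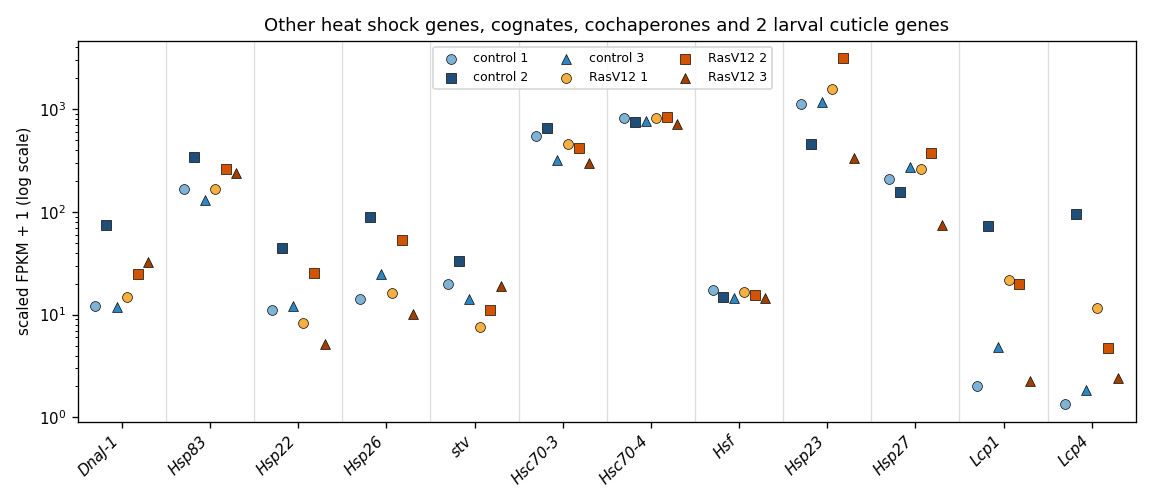
Scaled FPKM + 1 (log axis) of cochaperones, other heat shock genes, cognates, Hsf and 2 larval cuticle genes in each of the 6 libraries, with symbols as for the levels. DnaJ-1, Hsp83, Hsp22, Hsp26, stv, Lcp1 and Lcp4 are highest in control replicate 2, whereas Hsc70-4 (710 to 831) and Hsf (13.4 to 16.2) vary little and Hsp23 is low there.

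Outside the 7 members, the genes whose level across the 6 libraries was most like the mean log2 level of the 6 copies were Mat89Ba, CG10754, Dcp1, Lcp4 and CG2147, with Pearson's r of 0.99, 0.96, 0.96, 0.95 and 0.95. The 6 points share the library depth and 1 extreme library, and the values are a description. Except for Lcp4 the size of the pattern was small in these genes. Mat89Ba measured 1.46, 2.99 and 1.67 scaled FPKM in control replicates 1, 2 and 3 and 2.07, 1.56 and 1.78 in RasV12 replicates 1, 2 and 3. Of the chaperone genes, r was 0.84 for DnaJ-1, 0.67 for Hsp83, 0.56 for Hsp26, 0.51 for Hsp22, 0.50 for stv, -0.34 for Hsp27, -0.36 for Hsc70-4 and -0.53 for Hsp23. That of the transcription factor Hsf was -0.23.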

How the data were processed

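The authors sequenced fat body RNA as paired reads, mapped them with TopHat 1.0.14 and left out duplicates. For each library they deposited a Cufflinks 0.0.5 table that gives FPKM and its bounds for the Ensembl genes of BDGP5. Their Cuffdiff comparison was not used. Control replicate 3 is run 3A. Run 3B sequenced the same sample again and is no further control, and the table of both runs merged is mostly run 3A times a constant (94.3% of 6869 genes within 1% of a ratio of 0.770).

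The fragments behind an FPKM were worked out as the square of 2 times the value over its distance to the upper bound. Each library was scaled to a common 75th percentile, taken over the genes that any library had above 0. The test was limma 3.58.1 in R 4.3.3 on log2(scaled FPKM + 1), for genes whose FPKM averaged 1 or more. It used an eBayes trend, Benjamini-Hochberg adjustment and no block. The fit was tested on simulated data, with levels set well above the floor and normal noise. That trial does not cover genes near the floor or an extreme library, as with the Hsp70 copies. A fold change on this scale understates the change of low genes, and 3 libraries against 3 cannot give an exact permutation p below 0.10. The labels name no separate cultures beyond the pools of larvae, so p-values measure the spread between these samples. Starts in the tables count from 0 and are given from 1. BDGP6 served only for names, strands and exons.

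The members, gene lists and alternatives were chosen with earlier results of these data known. Named were all members, the nearest 2 genes on each side of each locus, list genes at an unadjusted p under 0.05, Hsf, Hsp83, Hsc70-4, Hsc70-3, DnaJ-1 and stv, the 5 genes most like the copies, and the top marker beside a result. Hsc70Cb stands in the cognate and the cochaperone list. Alternatives were the added constant, the filter, the scaling, the table standing for control replicate 3, array weights, robust eBayes, a block by replicate number and each library left out.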

Additional observations from a re-analysis of the deposited data

How the results depend on the processing

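Without 1 library at a time, the median log2 fold change of the 6 copies had a lowest value of -0.82, when control replicate 1 was out, and a highest of 0.78, when control replicate 2 was out. It was -0.73 with array weights, -0.21 with 5 added and -0.24 with 0.1 added. The members' own ranges were -1.36 to 0.77 for Hsp70Aa, -1.22 to 0.93 for Hsp70Ab, -0.40 to 0.78 for Hsp70Ba, -0.45 to 0.92 for Hsp70Bb, -0.76 to 0.49 for Hsp70Bbb, -0.98 to 0.33 for Hsp70Bc and -0.56 to 0.27 for Hsp68, each highest without control replicate 2. With values at or under 3 fragments set to 3, chosen after seeing the data, the median was 0.36 without control replicate 2. With no library left out, sign changes of Hsp70Ba were -0.080 with 5 added, -0.078 with run 3B, -0.039 with the mean of both runs and -0.32 with array weights. Those of Hsp70Bb were -0.10 with 5 added and -0.34 with array weights. Hsp70Ba and Hsp70Bb also turned negative without control replicate 1 (-0.34 and -0.35), control replicate 3 (-0.40 and -0.45) or RasV12 replicate 1 (-0.17 and -0.22). With 0.1 added Hsp70Ba came to 1.02 and Hsp70Bb to 0.70. Hsp68 came to 0.00095 without scaling, which moved the median of all genes to 0.20. The cause of these changes was not tested. No member reached an unadjusted p of 0.05 under any alternative run, with limma adjusted p-values between 0.576 and 1.0.

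The count of genes with an adjusted p under 0.05, 8 in the comparison as reported, was 5 with 5 added, 4 with run 3B, 4 with the mean of runs 3A and 3B, 16 with array weights and 4 to 49 without 1 library, the 49 without RasV12 replicate 3 and the 4 without RasV12 replicate 2. It was 3 with the replicate block, which left the median of the copies at -0.38. With each gene centred within its group, libraries of the same number had correlations of 0.0879, -0.168 and -0.15 across genes. With 3 libraries in each group these values cannot show whether same-numbered libraries were prepared together. With a mean FPKM of at least 5 only 3 members were tested. Of 196 alternative values 168 were classed as the same as in the comparison as reported, 20 as reversed in sign and 8 as moved. For a member's fold change this meant the same direction and side of the threshold. No member passed the threshold under any setting, so direction alone decided. For a count it meant within a set factor, and for the median of the copies within the spread between libraries. Control replicate 2 widens that spread, so medians of -0.82 and -0.065 were both classed as the same as -0.38. The class is thus a weak check of stability. The counts of members lower in RasV12 larvae, or wholly below the controls, were 0 under every setting and are among the 168. Depth limits the Hsp70B copies most, which by their bounds held 3 fragments or fewer in control replicates 1 and 3.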

Other observations

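Run 3B, the second sequencing of control replicate 3, held 855836 fragments on genes and entered only the alternatives for that replicate. It listed Hsp70Aa at 2.68 FPKM and Hsp70Ab at 2.84 FPKM before scaling, against 2.29 and 1.29 FPKM in run 3A. The 6 copies rested on 11.2 fragments in run 3B and on 26.9 in run 3A. Hsp68 was at 19.0 FPKM in run 3B and at 20.5 FPKM in run 3A.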
